A study of Mus musculus with 12 samples.

Results

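Inhibition in the hippocampus was followed here through 25 genes of the GABA system: the enzymes and carriers of the transmitter, its receptors and their scaffold, and markers of the interneurons that release it. They are taken by name, with no measured value in the rule, although earlier results of these data were known when the list was made. A row of the deposited tables was taken where its gene name, split at commas, was one of the 25 symbols and its locus type was not intronic. The 25 genes were found as 26 loci, of 15922 named genes and 22306 loci in all, because Gabbr2 is listed at 2 loci. By role they were 5 genes of synthesis, transport and breakdown, 9 subunits of the GABA-A receptor, 3 genes of the GABA-B receptor and the scaffold, and 8 interneuron markers and lineage factors.

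Hippocampal RNA was taken from C57BL/6 mice 3 days after an intranasal dose of 10 µg of small interfering RNA (siRNA). There were 12 libraries in 3 groups of 4. The siScramble group received a control sequence, the siHdac4 group an siRNA against the histone deacetylase gene Hdac4, and the siBdnf group an siRNA against the gene of brain-derived neurotrophic factor. All 3 groups therefore share the strain, the nasal delivery, the dose and the time, and no untreated group was analysed here. Levels are FPKM, a measure scaled to transcript length and library size, so genes can be set side by side. Whether the libraries of a group are separate animals is not stated in the labels; p-values then measure only the spread between these libraries.

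GABA is the main inhibitory transmitter of the forebrain. Interneurons make it from glutamate, load it into vesicles and release it onto GABA-A receptors, which are chloride channels built of subunits drawn from several families, and onto GABA-B receptors, which act through G proteins. Transporters on neurons and astrocytes take it up again, and a mitochondrial transaminase breaks it down. Hippocampal interneurons stem from the embryonic ganglionic eminences, where Dlx and Lhx6 transcription factors direct their fate, and they are a minority among the pyramidal and granule cells around them.

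Markers of hippocampal neurons were present, with Neurod6, a gene of pyramidal cells, at 249 to 594 FPKM and Prox1, a gene of dentate granule cells, at 8.53 to 12.5 FPKM. Neither targeted gene lay below its controls beyond their spread: mean Hdac4 was 41.01 ± 5.93 FPKM in siHdac4 against 39.1 ± 5.94 FPKM in siScramble, and mean Bdnf 5.19 ± 0.255 FPKM in siBdnf against 5.37 ± 0.174 FPKM in siScramble (SD, n = 4 each, with overlapping ranges). The group names below are therefore those of the labels. Markers of the choroid plexus, a tissue next to the hippocampus, summed to 40.7 to 2189 FPKM in siScramble, 28.3 to 87.1 FPKM in siHdac4 and 36.4 to 111 FPKM in siBdnf. The high values were those of siScramble libraries 1 and 3, where the defining marker Ttr stood at 810 and 1977 FPKM; no marker of that list was at 0 in all libraries. Markers of the thalamus and habenula (9 loci, none at 0 throughout) summed to 118 FPKM in siBdnf library 1 and to 32.4 to 49.2 FPKM in the other 11 libraries. In that library Tac2 alone stood at 84.6 FPKM, and without Tac2 the sum was 33.8 FPKM there and 30.9 to 38.4 FPKM elsewhere. Read depth is not part of the tables, and in bulk tissue fewer cells of a type and less RNA per cell cannot be told apart.

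Of the 25 genes, 21 matched RefSeq promoter windows (28 windows on GRCm38.p6, each from 250 bases before to 50 bases after a transcription start). Below are 4 of them, written 5′ to 3′ in the direction of the gene. Gabrb2 and Slc32a1 are shown because the smallest p-values against siScramble were theirs, and Gabra4 and Gabrb1 because the tables list both under the same coordinates. Capitals mark matches, on either strand, to the core of MEF2 sites (CTA and TAG around 4 bases that are each A or T), TATAAA (the TATA box) or TGACG (part of a cyclic AMP response element, which lies within the whole element TGACGTCA).
Slc32a1, chr2:158610508-158610807, plus strand: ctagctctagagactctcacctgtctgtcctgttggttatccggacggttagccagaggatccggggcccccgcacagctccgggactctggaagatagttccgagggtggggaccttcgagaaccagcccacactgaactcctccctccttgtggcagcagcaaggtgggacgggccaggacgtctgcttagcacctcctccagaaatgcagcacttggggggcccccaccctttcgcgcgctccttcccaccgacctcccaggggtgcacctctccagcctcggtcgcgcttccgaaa
Gabrb2, first of 3 starts, chr11:42420190-42420489, plus strand: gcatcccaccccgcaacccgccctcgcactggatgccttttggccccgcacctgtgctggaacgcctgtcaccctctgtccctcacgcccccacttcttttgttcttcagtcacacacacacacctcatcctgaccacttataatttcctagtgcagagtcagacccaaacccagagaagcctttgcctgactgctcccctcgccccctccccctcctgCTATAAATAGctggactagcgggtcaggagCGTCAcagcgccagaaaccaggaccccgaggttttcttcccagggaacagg
Gabra4, chr5:71658259-71658558, minus strand: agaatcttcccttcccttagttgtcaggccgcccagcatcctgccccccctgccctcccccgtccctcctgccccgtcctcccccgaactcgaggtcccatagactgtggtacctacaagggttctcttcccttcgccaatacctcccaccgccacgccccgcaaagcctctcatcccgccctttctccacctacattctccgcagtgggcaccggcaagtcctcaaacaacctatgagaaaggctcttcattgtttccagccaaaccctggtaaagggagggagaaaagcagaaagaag
Gabrb1, first of 2 starts, chr5:71657671-71657970, plus strand: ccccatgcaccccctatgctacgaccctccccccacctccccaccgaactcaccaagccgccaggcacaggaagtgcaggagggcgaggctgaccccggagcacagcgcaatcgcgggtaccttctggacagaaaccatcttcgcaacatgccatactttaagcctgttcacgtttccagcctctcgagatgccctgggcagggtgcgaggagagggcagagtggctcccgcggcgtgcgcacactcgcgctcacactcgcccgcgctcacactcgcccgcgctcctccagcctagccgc

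MEF2 proteins are transcription factors that class IIa histone deacetylases, Hdac4 among them, are known to bind. The MEF2 core occurred in 1 of the 28 member windows, that of Gabrb2 shown above, and in 0.557% of all 32851 windows. It began at base 220 of the window and overlapped a TATAAA match at base 221. TATAAA was found in 5 of the 28 member windows (Gabra3, Gabrb2, Gad1 and Lhx6) and 13.6% of all windows. TGACG was found in 3 (Dlx2, Gabrb2 and Gad2) and 20.8% of all windows, and the homeodomain core TAATTA in 1, of Gabrg1, and 5.29% of all windows. The windows of Slc32a1, Gabra4 and Gabrb1 shown held none of the 6 motifs searched. No member window held TGACGTCA, present in 1.79% of windows, or GCGTGGGCG, a site of EGR factors present in 0.612% of windows. The median GC content was 60.5% over the member windows and 52.7% over all windows. These matches describe letters in these windows only. Gabra4 and Gabrb1 lie on opposite strands with RefSeq starts 387 bases apart, at base 71658308 and base 71657921 of chromosome 5, so their first bases overlap.

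Levels within the GABA system ran from 0.423 to 149 FPKM as means of the 12 libraries. Gabbr1, the subunit of the GABA-B receptor that binds the transmitter, was the most abundant member at 118 to 167 FPKM, and every library placed it above all other members. Gabrb2 (63.2 to 75.6 FPKM), Erbb4 (51.2 to 75.02 FPKM) and Gabra5 (50.4 to 58.3 FPKM) followed, with ranges that overlapped from each to the next. Gad1 (42.4 to 56.2 FPKM) overlapped Gabra5, and Gabbr2 (36.6 to 46.0 FPKM) overlapped Gad1. Gabra2 overlapped Gabbr2 in turn, and Gabrb1, Gad2 and Abat formed a group with means of 31.0, 28.7 and 27.4 FPKM. Reln, Pvalb, Gabra4, Gabra3, Slc6a11 and Gabrg1 had means from 18.6 down to 12.5 FPKM with overlapping ranges. Gabrd, Gabrg3, Dlx1 and Lhx6 lay between 8.54 and 4.99 FPKM on average. The least abundant loci were Slc32a1 (1.61 FPKM), Dlx6 (1.34 FPKM), Dlx5 (0.865 FPKM), the second Gabbr2 locus (0.696 FPKM), the locus named Fam71d and Gphn (0.663 FPKM) and Dlx2 (0.423 FPKM). The vesicular GABA carrier Slc32a1 was thus listed far below the synthesising enzymes, with Gad2 at 12.7 to 23.9 times its FPKM over the 12 libraries.

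**Figure D1:**
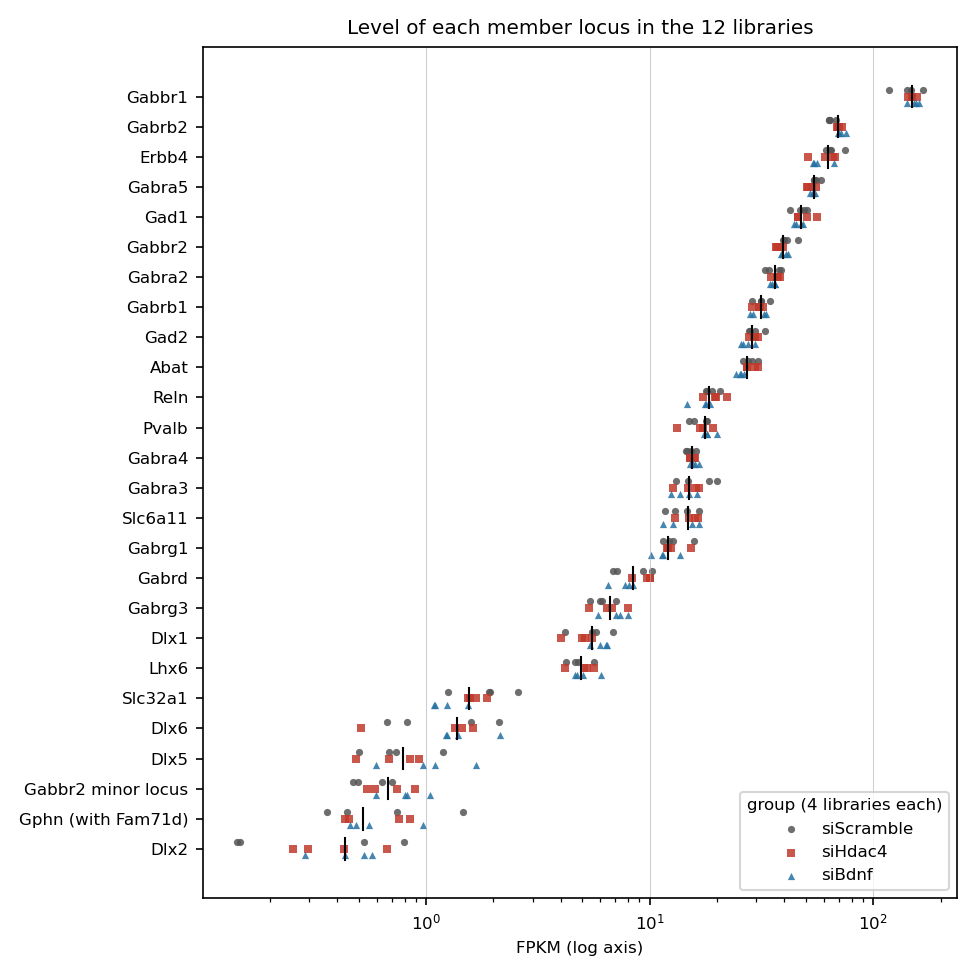
FPKM of the 26 member loci in each of the 12 libraries on a log axis, ordered by mean; points are libraries by group (4 each) and the black bar is the median of the 12. The libraries of the 3 groups lie among each other at most loci, Gabbr1 lies apart at 118 to 167 FPKM, and the spread is widest at loci near or under 1 FPKM.

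No member passed the threshold in any comparison. Differences were tested with limma on log2(FPKM + 1) at the 18339 loci that averaged 1 FPKM or more, 22 of them members, with a threshold of 0.05 on the Benjamini-Hochberg adjusted p. The second Gabbr2 locus, the Fam71d and Gphn locus, Dlx2 and Dlx5 lay under that level. For siHdac4 against siScramble 0 of 22 members passed, against 0.00545% of all loci. For siBdnf against siScramble 0 of 22 passed, against 0% of all loci, and for siHdac4 against siBdnf 0 of 22, against 0.00545%. In the authors' deposited table the smallest FDR of a member was 0.137, for Slc32a1 in siBdnf. Both siRNA comparisons use the same 4 siScramble libraries, so their values are given side by side.

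Before adjustment, 2 members had a p below 0.05 for siHdac4 against siScramble, Gabrb2 in the higher direction and Gabbr2 in the lower. Of all loci 4.52% were higher and 5.43% lower by that rule, so 1 of 22 in each direction was near the background. Without siScramble library 4, or without siHdac4 library 2 or 3, the count was 0 in place of 2. For siBdnf against siScramble there were 3, with Gabrb2 higher and Slc32a1 and Abat lower, beside 5.72% of all loci higher and 2.9% lower. Over the alternatives tried, that count ran from 2 to 4. The median log2 fold change of the 22 members was 0.011 for siHdac4 and −0.034 for siBdnf, and that of all loci was −0.0089 and 0.021. The first was 0.039 with median scaling, 0.044 without siScramble library 4 and below 0 without siScramble library 1 (−0.0076), siHdac4 library 3 (−0.015) or siScramble libraries 1 and 3 (−0.00019). The second was −0.078 with quantile scaling and 0.00017 without siScramble library 4. Above 0 were 11 of 22 members for siHdac4 and 9 of 22 for siBdnf, where 47.6% and 56.5% of all loci were. The 95% interval of the log2 fold change lay within −0.5 and 0.5 for 21 of 22 members in siHdac4, the exception being Dlx6, and for 20 of 22 in siBdnf, the exceptions being Dlx6 and Slc32a1. The largest estimates were 0.18 for Gabrd in siHdac4 and −0.37 for Slc32a1 in siBdnf.

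**Figure D2:**
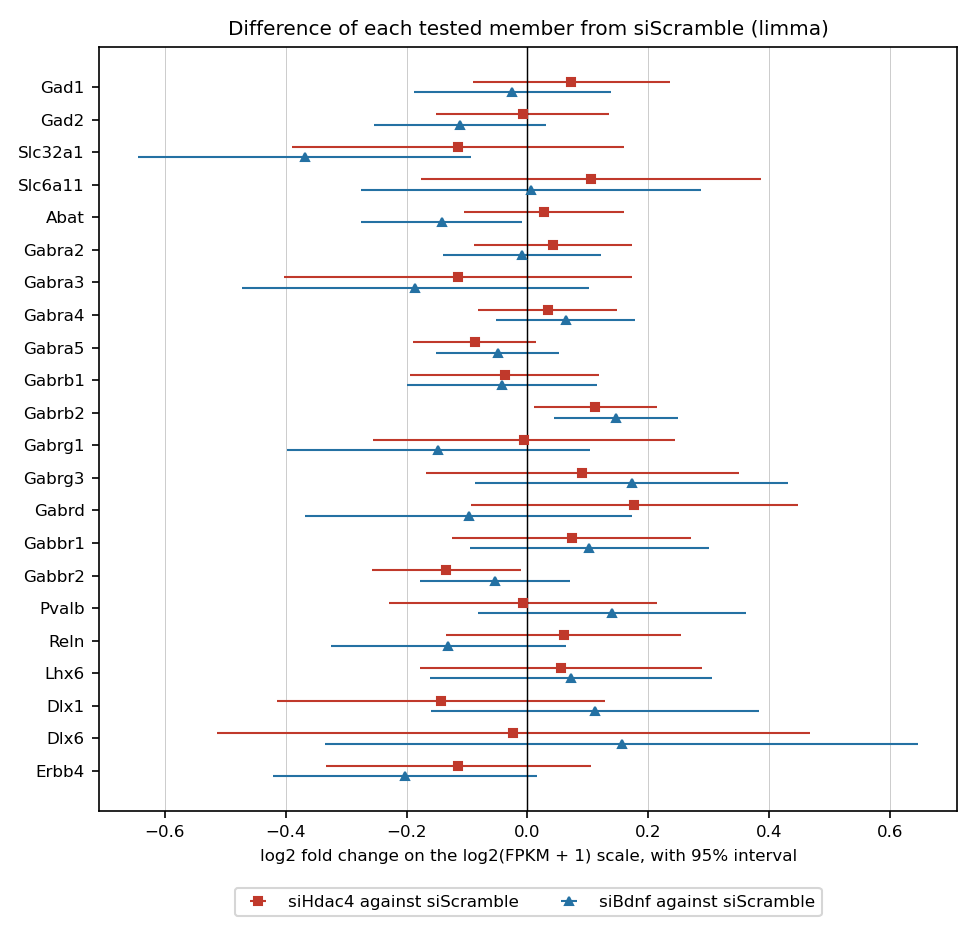
Log2 fold change on the log2(FPKM + 1) scale (x axis) of the 22 tested members (y axis) for siHdac4 (squares) and siBdnf (triangles) against the same 4 siScramble libraries; bars are 95% intervals from limma. The intervals cover 0 for 20 members in siHdac4 and 19 in siBdnf, and Slc32a1 in siBdnf lies farthest from 0 at −0.37.

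Among the genes of synthesis, transport and breakdown, Slc32a1 in siBdnf showed the lowest values. Slc32a1 encodes the carrier that loads GABA into synaptic vesicles, at chr2:158610736-158615045. Its FPKM was 1.92, 1.25, 1.93 and 2.58 in siScramble libraries 1 to 4, 1.53, 1.57, 1.87 and 1.68 in siHdac4 and 1.10, 1.24, 1.53 and 1.08 in siBdnf. The siBdnf libraries lay low, but siScramble library 2 was as low as they were, so those groups overlapped, while each siHdac4 library was above the highest siBdnf library, library 1 by less than the digits shown. The means were 1.92 ± 0.545 FPKM, 1.66 ± 0.150 FPKM and 1.24 ± 0.207 FPKM (SD, n = 4 each). Against siScramble the log2 fold change was −0.37 in siBdnf (95% interval −0.64 to −0.094, unadjusted p = 0.0130, limma adjusted p = 0.502) and −0.12 in siHdac4 (interval −0.39 to 0.16). The authors' deposited table gave siBdnf a log2 fold change of −0.63 without a pseudocount, with a p of 0.002 and an FDR of 0.137. The estimate in siBdnf ran from −0.49 to −0.26 when each library was left out in turn. Without siScramble libraries 3 and 4 it was −0.20, and without libraries 1 and 3, those with the high choroid plexus sums, it was −0.35.

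Gad1 and Gad2 encode the 2 glutamate decarboxylases that make GABA. Gad1 was at 48.97, 47.1, 42.4 and 50.5 FPKM in siScramble, 46.3, 50.5, 56.2 and 46.1 in siHdac4 and 48.5, 47.5, 45.2 and 44.1 in siBdnf. Gad2 was at 28.0, 29.7, 27.9 and 32.7 FPKM in siScramble, 29.3, 29.7, 30.6 and 27.8 in siHdac4 and 26.3, 29.6, 27.6 and 25.6 in siBdnf. All groups overlapped for both enzymes, and siHdac4 library 3 held the highest Gad1 value. The log2 fold changes of Gad1 were 0.072 in siHdac4 (interval −0.091 to 0.24) and −0.025 in siBdnf (interval −0.19 to 0.14). Those of Gad2 were −0.0082 (interval −0.15 to 0.13) and −0.11 (interval −0.25 to 0.030). The ratio of Gad1 to Gad2 FPKM averaged 1.60 ± 0.104 for siScramble, 1.69 ± 0.107 for siHdac4 and 1.70 ± 0.107 for siBdnf (SD, 4 libraries each), so the groups differed by about 1 SD or less. The balance of the 2 enzymes ranged from 1.52 to 1.85 over the libraries.

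Abat, the transaminase that breaks GABA down, had a narrow and low range in siBdnf. It was at 28.8, 30.5, 26.0 and 27.4 FPKM in siScramble, 29.7, 27.4, 30.6 and 27.2 in siHdac4 and 25.5, 26.4, 25.2 and 24.4 in siBdnf. The siBdnf values overlapped only the lowest siScramble library and none of the siHdac4 libraries. The log2 fold change against siScramble was −0.14 in siBdnf (interval −0.27 to −0.0087, unadjusted p = 0.0387, limma adjusted p = 0.557) and 0.027 in siHdac4 (interval −0.11 to 0.16). Slc6a11, a plasma membrane GABA transporter found mainly on astrocytes, was at 14.7, 13.0, 11.7 and 16.5 FPKM in siScramble, 15.9, 15.0, 16.4 and 13.0 in siHdac4 and 12.8, 16.7, 15.5 and 11.5 in siBdnf. Its groups overlapped over most of their range, with log2 fold changes of 0.11 in siHdac4 and 0.0060 in siBdnf. The summed level of 12 astrocyte markers ran from 944 to 1022 FPKM in siScramble, 955 to 1032 FPKM in siHdac4 and 963 to 1020 FPKM in siBdnf, with none at 0.

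The GABA-A receptor is assembled from alpha, beta and gamma or delta subunits, and the alpha subunit largely sets its location and pharmacology. Gabra5, a subunit of extrasynaptic receptors on hippocampal pyramidal cells, was the most abundant of the 4 alpha members, at 54.6, 55.6, 58.3 and 54.3 FPKM in siScramble, 55.2, 50.4, 53.0 and 50.9 in siHdac4 and 53.8, 55.0, 54.0 and 52.2 in siBdnf. The siHdac4 values reached lower than the others but overlapped both groups. Gabra2, enriched at the axon initial segment, was at 32.7, 38.8, 34.3 and 37.9 FPKM, 37.4, 38.2, 37.3 and 34.9 FPKM and 34.6, 35.3, 36.3 and 36.3 FPKM in the same order of groups. Gabra4, a partner of the delta subunit in dentate granule cells, was at 15.3, 14.5, 14.6 and 16.1 FPKM, 15.9, 15.7, 15.1 and 15.2 FPKM and 15.9, 15.2, 16.6 and 15.7 FPKM. Gabra5 and Gabra4 varied least of all members, each with a coefficient of variation of 3.98% or 3.99% over the 12 libraries. Gabra3, an alpha subunit with a wider spread, was at 14.8, 20.04, 13.1 and 18.4 FPKM in siScramble, 16.6, 14.9, 16.2 and 12.8 in siHdac4 and 13.7, 15.0, 16.2 and 12.5 in siBdnf, highest in siScramble libraries 2 and 4. Against siScramble, the log2 fold changes in siHdac4 and siBdnf were −0.088 and −0.050 for Gabra5, 0.042 and −0.0087 for Gabra2, 0.033 and 0.063 for Gabra4, and −0.11 and −0.19 for Gabra3. Each of these intervals covered 0. As a share of their summed FPKM, Gabra5 made up 42.3% to 48.4%, Gabra2 27.9% to 32.0%, Gabra4 11.2% to 13.5% and Gabra3 10.7% to 15.5% over the 12 libraries.

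**Figure D3:**
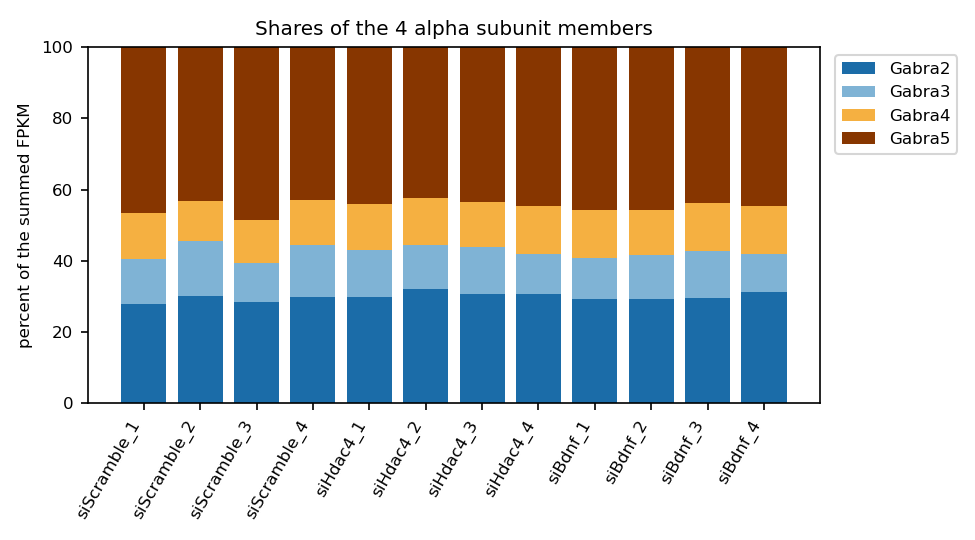
Share of the summed FPKM of Gabra2, Gabra3, Gabra4 and Gabra5 in percent (y axis) in each of the 12 libraries (x axis). Gabra5 holds 42.3% to 48.4% and Gabra2 27.9% to 32.0% in every library, and the order of Gabra3 and Gabra4 differs between libraries.

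Gabrb2, a beta subunit of synaptic receptors at chr11:42419504-42632567, was the member whose siScramble values stood apart from both other groups. It was at 63.4, 68.4, 63.2 and 64.4 FPKM in siScramble, 72.2, 69.5, 70.3 and 68.5 in siHdac4 and 70.6, 69.6, 75.6 and 71.7 in siBdnf. The libraries of the siHdac4 and siBdnf groups lay above all 4 siScramble libraries, the nearest being siScramble library 2 and siHdac4 library 4. The means were 64.8 ± 2.46 FPKM, 70.1 ± 1.55 FPKM and 71.9 ± 2.60 FPKM (SD, n = 4 each). The log2 fold change was 0.11 in siHdac4 (interval 0.010 to 0.21, unadjusted p = 0.0335, limma adjusted p = 0.498) and 0.15 in siBdnf (interval 0.045 to 0.25, unadjusted p = 0.00881, adjusted p = 0.501). Without siScramble libraries 1 and 3 these values were 0.079 and 0.11. A higher group with no overlap was seen for 1 of 22 members in each comparison, Gabrb2 both times, beside 1.71% of all loci in siHdac4 and 3.29% in siBdnf. A lower group with no overlap was seen for 0 of 22 members in each, beside 1.82% and 1.58% of all loci. The authors' deposited table gave Gabrb2 a p of 0.282 in siHdac4 and 0.153 in siBdnf.

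Gabrb1, the second beta member, was at 31.5, 28.8, 34.5 and 31.5 FPKM in siScramble, 32.2, 30.9, 31.2 and 28.6 in siHdac4 and 28.1, 28.9, 32.4 and 33.3 in siBdnf, with all groups overlapping. Its log2 fold changes were −0.038 in siHdac4 and −0.042 in siBdnf. Gabrb1 and Gabra4 share the listed coordinates chr5:71563430-72153002. Each has 5 other loci at these coordinates, the other gene included, and 3 of the 5 are intronic. The sources used here do not state if reads were assigned by strand, so reads from the overlap of the 2 genes cannot be told apart. Their FPKM still differed in every library, Gabrb1 being 1.77 to 2.35 times Gabra4.

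The gamma and delta subunits help to place receptors at or outside the synapse. Gabrd, the delta subunit of receptors that carry tonic inhibition in dentate granule cells, was at 10.3, 9.34, 6.85 and 7.14 FPKM in siScramble, 10.0, 9.76, 9.98 and 8.30 in siHdac4 and 8.11, 8.45, 7.79 and 6.51 in siBdnf. The siScramble libraries were high in libraries 1 and 2 and low in libraries 3 and 4, and covered most of both other groups. The log2 fold change was 0.18 in siHdac4 (interval −0.094 to 0.45) and −0.10 in siBdnf (interval −0.37 to 0.17). Gabrg1, a gamma subunit also known from glia, was at 12.7, 15.8, 12.2 and 11.4 FPKM in siScramble, 11.998, 12.5, 15.3 and 12.03 in siHdac4 and 11.4, 13.6, 11.4 and 10.1 in siBdnf. Gabrg3, another gamma subunit, was at 7.04, 5.40, 6.01 and 6.12 FPKM in siScramble, 7.96, 5.33, 6.81 and 6.46 in siHdac4 and 7.37, 5.84, 7.07 and 7.96 in siBdnf. Both overlapped between all groups, with log2 fold changes of −0.0054 and −0.15 for Gabrg1 and 0.091 and 0.17 for Gabrg3 in siHdac4 and siBdnf. Gabrg3 shares its listed coordinates with 1 other locus, an intronic one. Its span, chr7:56716296-56985339, does not reach the RefSeq start window of the gene at chr7:57387166-57387465 on the minus strand. Intronic loci named Gabrg3 are listed between them, up to base 57387181, so the FPKM is that of the listed span only. Of the 9 GABA-A subunits, 0 passed the threshold in either comparison, and their median log2 fold change was 0.033 in siHdac4 and −0.042 in siBdnf.

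The GABA-B receptor works as a pair of Gabbr1, which binds GABA, and Gabbr2, which couples to the G protein. Gabbr1 was at 147, 118, 141 and 167 FPKM in siScramble, 143, 157, 149 and 149 in siHdac4 and 141, 156, 153 and 161 in siBdnf. Both the lowest and the highest of the 12 values were siScramble libraries, 2 and 4. Gabbr2 at its main locus, chr4:46662130-46991375, was at 40.0, 41.1, 39.4 and 46.0 FPKM in siScramble, 37.2, 38.0, 36.6 and 39.5 in siHdac4 and 38.6, 41.6, 39.0 and 40.8 in siBdnf. The siHdac4 libraries lay at the low end, and the highest of them was level with the lowest siScramble library. Its log2 fold change was −0.13 in siHdac4 (interval −0.26 to −0.010, unadjusted p = 0.0361, limma adjusted p = 0.498) and −0.054 in siBdnf (interval −0.18 to 0.070). For Gabbr1 it was 0.073 and 0.10, with intervals of −0.12 to 0.27 and −0.10 to 0.30. The ratio of Gabbr1 to Gabbr2 FPKM averaged 3.44 ± 0.379 for siScramble, 3.96 ± 0.175 for siHdac4 and 3.82 ± 0.135 for siBdnf (SD, 4 libraries each). The siScramble ratios reached down to 2.87 in library 2, and the siHdac4 ratios of 3.77 to 4.13 did not overlap the siScramble ratios of 2.87 to 3.68. The siBdnf ratios of 3.66 to 3.94 overlapped both. That difference in ratio was not tested. How often the ratio of any other pair of loci separates these groups was not counted, so this non-overlap has no background. Gabbr1 shares its listed coordinates with 2 other loci.

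The scaffold protein gephyrin, encoded by Gphn, anchors GABA-A and glycine receptors at synapses, but its level could not be read from the member locus. That locus carries the names Fam71d and Gphn, is typed as overlapping loci and lies at chr12:78712152-78715499, just past the span chr12:78210748-78710426 of the 2 intronic loci named Gphn. It stood at 1.46, 0.444, 0.359 and 0.741 FPKM in siScramble, 0.432, 0.758, 0.452 and 0.849 in siHdac4 and 0.969, 0.555, 0.483 and 0.456 in siBdnf. The second Gabbr2 locus, typed as mixed, at chr4:46658944-46661141, stood at 0.472 to 1.04 FPKM and ends shortly before the main one begins. In a fit with the level lowered to a mean of 0.1 FPKM, the log2 fold changes were −0.079 and −0.087 for the Gphn locus and 0.10 and 0.20 for the second Gabbr2 locus, in siHdac4 and siBdnf. Every one of these intervals covered 0.

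Interneuron markers showed no group that stood apart from siScramble. Pvalb, a calcium-binding protein of fast-spiking basket cells, was at 15.7, 17.9, 17.95 and 15.0 FPKM in siScramble, 16.8, 13.3, 17.4 and 19.1 in siHdac4 and 19.99, 18.1, 18.1 and 17.4 in siBdnf. Reln, the secreted glycoprotein reelin, made by dendrite-targeting interneurons and Cajal-Retzius cells, was at 19.0, 18.1, 17.8 and 20.6 FPKM in siScramble, 17.3, 22.2, 19.9 and 19.7 in siHdac4 and 17.8, 18.6, 17.8 and 14.7 in siBdnf. The lowest Reln value was siBdnf library 4 and the highest siHdac4 library 2, which also held the lowest Pvalb value. The log2 fold changes in siHdac4 and siBdnf were −0.0070 and 0.14 for Pvalb and 0.060 and −0.13 for Reln.

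Erbb4, the neuregulin receptor, is known in the hippocampus mainly from interneurons. It was at 64.3, 75.02, 64.8 and 61.6 FPKM in siScramble, 51.2, 67.7, 60.9 and 66.0 in siHdac4 and 66.5, 53.9, 56.0 and 54.1 in siBdnf. Erbb4 shares its listed coordinates with 2 other loci, 1 of them intronic. In siBdnf 3 libraries lay under all siScramble values, while library 1, the library with high Tac2, lay among them. The log2 fold change was −0.20 in siBdnf (interval −0.42 to 0.016, unadjusted p = 0.0664, limma adjusted p = 0.599) and −0.11 in siHdac4 (interval −0.33 to 0.10). Without siBdnf library 1 the siBdnf value was −0.27 (limma adjusted p = 0.633), and over all 12 fits that each left out 1 library it ran from −0.27 to −0.14 with adjusted p-values of 0.446 to 0.875.

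Lhx6, the factor that specifies interneurons of the medial ganglionic eminence and stays on in adult parvalbumin and somatostatin cells, was at 4.21, 4.79, 4.64 and 5.62 FPKM in siScramble, 4.20, 5.07, 5.64 and 5.26 in siHdac4 and 5.04, 4.75, 4.61 and 6.06 in siBdnf. Dlx1, which is kept in some adult interneurons, was at 4.20, 5.54, 5.73 and 6.84 FPKM in siScramble, 5.14, 4.98, 5.54 and 4.02 in siHdac4 and 5.39, 6.46, 5.97 and 6.36 in siBdnf. Dlx1 was the only Dlx gene above 4 FPKM in every library, and its groups overlapped. Dlx6 was at 0.817, 0.666, 2.12 and 1.58 FPKM in siScramble, 1.35, 0.512, 1.62 and 1.45 in siHdac4 and 1.24, 2.14, 1.39 and 1.23 in siBdnf, with a coefficient of variation of 37.8% over the 12 libraries. Its values crossed between groups at all levels, and its listed coordinates are shared with 2 other loci. Dlx5 stood at 0.486 to 1.67 FPKM and Dlx2 at 0.143 to 0.794 FPKM. The log2 fold changes in siHdac4 and siBdnf were 0.055 and 0.072 for Lhx6, −0.14 and 0.11 for Dlx1, and −0.023 and 0.16 for Dlx6. With the level lowered to 0.1 FPKM they were −0.026 and 0.22 for Dlx5 and 0.029 and 0.077 for Dlx2. Each of these intervals covered 0.

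**Figure D4:**
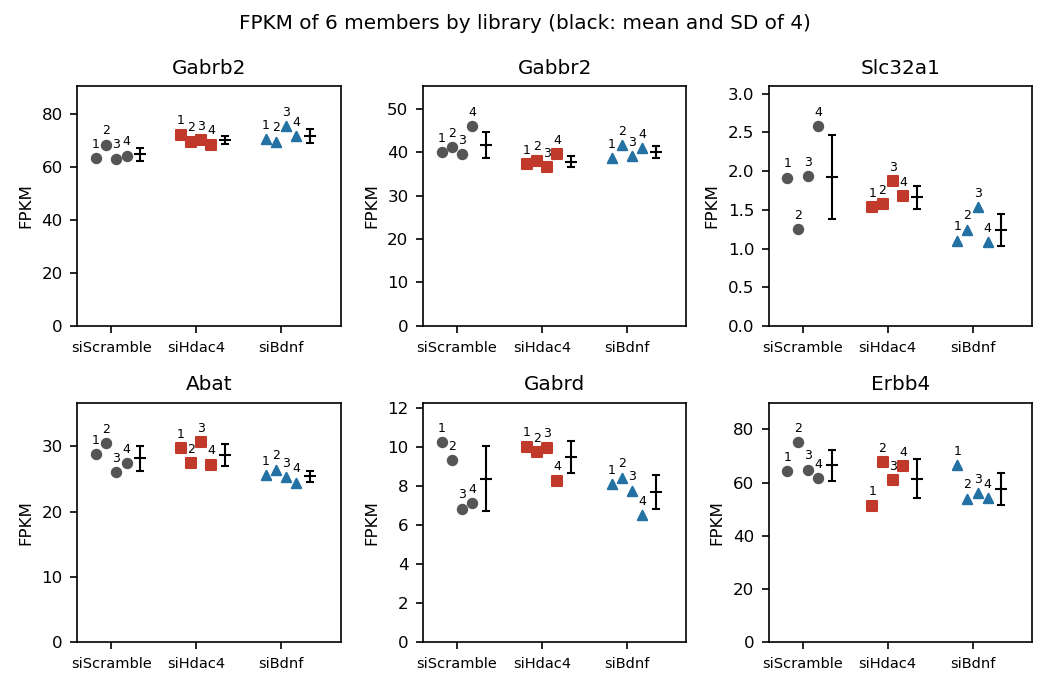
FPKM (y axis, from 0) of Gabrb2, Gabbr2, Slc32a1, Abat, Gabrd and Erbb4 in each library by group (x axis); numbers are the replicate numbers, and the black mark is the mean with the SD of 4 libraries. Gabrb2 shows no overlap between siScramble (63.2 to 68.4 FPKM) and the other groups, while siScramble library 2 brings Slc32a1 into the siBdnf range.

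Set directly against each other, siHdac4 and siBdnf gave 2 members an unadjusted p below 0.05, both higher in siHdac4, and 0 in the lower direction. That count was 5 with quantile or median scaling, 4 with the 2 groups alone or without siScramble library 4, and 1 without siHdac4 library 2 or 3 or siBdnf library 4. Of all loci 5.15% were higher and 10.5% lower by that rule. Abat had a log2 fold change of 0.17 (interval 0.036 to 0.30, unadjusted p = 0.0171, limma adjusted p = 0.252), and Gabrd one of 0.27 (interval 0.0034 to 0.54, unadjusted p = 0.0476, adjusted p = 0.316). Abat and Slc32a1 were the 2 of 22 members whose siHdac4 libraries all lay above the siBdnf libraries, beside 4.51% of all loci. In the lower direction there were 0 of 22, beside 8.47% of all loci. For Slc32a1 the log2 fold change was 0.25 (interval −0.022 to 0.53, unadjusted p = 0.0676). All 5 genes of synthesis, transport and breakdown had an estimate above 0 in this comparison, where 12 of 22 members and 43.0% of all loci did, from 0.10 for Gad1 to 0.25 for Slc32a1, with none past the adjusted threshold. The median over the 22 members was 0.027, and over all loci −0.028. With quantile or median scaling of the libraries the member median was 0.086 or 0.072, and with a mean of at least 0.1 FPKM or no filter on low values it was −0.0065. Intervals lay within −0.5 and 0.5 for 18 of 22 members, the exceptions being Dlx1, Dlx6, Gabrd and Slc32a1.

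Between libraries, siBdnf library 4 was the lowest of the 12 at 8 of the 26 member loci: Gad2, Slc32a1, Slc6a11, Abat, Gabra3, Gabrg1, Gabrd and Reln. The same library was the highest at 3 loci. In siScramble, library 4 was the highest at 5 loci and the lowest at 0, and library 3 the lowest at 5. How often each library was highest or lowest over all loci was not counted, so these counts have no background. The median deviation of the 22 members from their own mean, on the log2(FPKM + 1) scale, ran from −0.062 in siScramble library 3 to 0.074 in siScramble library 4, both in the control group. The median over all loci stayed between −0.029 and 0.028. Within groups, the members had a median SD of 0.12 for both siScramble and siHdac4 and 0.11 for siBdnf, and all loci one of 0.17, 0.13 and 0.12.

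**Figure D5:**
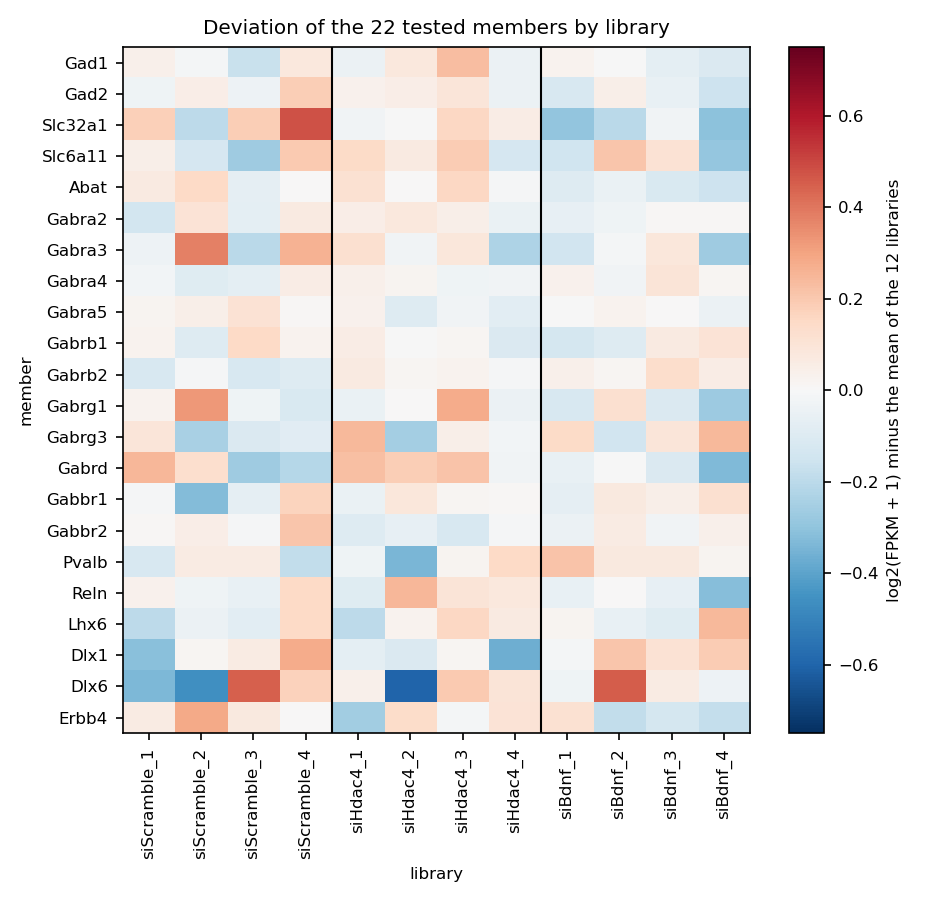
Deviation of log2(FPKM + 1) from the mean of the 12 libraries (colour, red above and blue below) for the 22 tested members (rows) in each library (columns, black lines between groups). Slc32a1 is high in siScramble library 4 (2.58 FPKM), the column of siBdnf library 4 holds the lowest value of 8 member loci, and the strongest colours are those of Dlx6, which varies most of the tested members (37.8%).

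The members were set beside 2 further lists of the same system. Of 39 other GABA system genes 30 were listed, and 0 of their 32 tested loci passed the adjusted threshold in any of the 3 comparisons. Before adjustment 1 locus was higher and 2 lower in siHdac4, and 1 higher and 2 lower in siBdnf, against siScramble. Their median log2 fold changes were 0.0062 and 0.0042. Of 32 other interneuron markers 31 were listed, and 0 of their 30 tested loci passed. By unadjusted p, 1 was higher and 1 lower in siHdac4 and 0 higher and 1 lower in siBdnf, with medians of −0.039 and −0.037. In siHdac4 against siBdnf, 3 loci were higher and 3 lower in each list. By the same rule 5.15% of all loci were higher and 10.5% lower in that comparison. The shares were 4.52% and 5.43% for siHdac4 against siScramble, and 5.72% and 2.9% for siBdnf against siScramble. The summed FPKM of the other interneuron markers ran from 756 to 829 in siScramble, 747 to 802 in siHdac4 and 745 to 883 in siBdnf, with overlapping groups. The sum of 883 FPKM was that of siBdnf library 1. Tac2, which is also on this list, stood at 84.6 FPKM there and at 0.668 to 13.7 FPKM elsewhere.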

How the data were processed

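Poly-A selected, directional libraries were prepared from hippocampal RNA, per the labels' protocols. TopHat2 2.0.9, Cufflinks and Cuffdiff are named in the submitters' processing notes. Neither genome build nor read depth is given in the sources used here. As deposited by the authors, 2 tables hold FPKM values per library, with the siScramble columns in both. The authors' deposited log2 fold change, p-value and FDR were used only where their table is named. FPKM is not a count, so log2(FPKM + 1) values of all 3 groups entered limma 3.58.1 (R 4.3.3), with a variance trend, wherever a locus averaged 1 FPKM or more; this scale understates changes of low genes. Loci listed at 0 throughout a group, 48 in all, were left out, and p-values were Benjamini-Hochberg adjusted over 18339 loci. The fit was tested on simulated data. Summaries and figures used pandas 2.3.3, numpy 2.4.6 and matplotlib 3.10.9 under Python 3.11.15.

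The members and lists were chosen with earlier results of these data known. All members are named, and genes of other lists are given as counts, medians or sums, apart from the few markers named with their values. Alternatives tried were other pseudocounts, filters, scalings, weights, a replicate block, each pair of groups alone, protein-coding loci alone, loci listed at 0 kept, no variance trend, another threshold and left-out libraries. Of the 26 loci, 24 overlapped their GENCODE gene on GRCm38, and coordinates of loci are printed as deposited. Sequences and starts are from RefSeq (GRCm38.p6).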

Additional observations from a re-analysis of the deposited data

Results flagged for a closer look

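In groups of 4 libraries, a member was looked at again where the gap between its highest or lowest library and the next, divided by the range of the group, exceeded the critical value of Dixon's test at the 95% level. Of 78 groups 3 met this, where chance gives about 3.9 (5% of groups). Gabrg1 in siHdac4 had a gap of 0.8618 of the range, with library 3 at 15.3 FPKM above others at 11.998 to 12.5 FPKM. Gabrd in siHdac4 had a gap of 0.8366, with library 4 at 8.30 FPKM under libraries at 9.76 to 10.0 FPKM. Erbb4 in siBdnf had a gap of 0.8323, with library 1 at 66.5 FPKM above libraries at 53.9 to 56.0 FPKM. That library also stood apart in Tac2, at 84.6 FPKM against 0.668 to 13.7 FPKM elsewhere; its part in the Erbb4 value was not tested.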

How the results depend on the processing

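No member passed the adjusted threshold under any of the 28 alternatives in any of the 3 comparisons; the smallest adjusted p of a member was 0.0825. The sign of an estimate turned in 40, 15 and 17 of 613 values for siHdac4 against siScramble, siBdnf against siScramble and siHdac4 against siBdnf, in none of them where an unadjusted p was below 0.05.

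Members under an unadjusted p of 0.05 numbered 2 for siHdac4 against siScramble, 1 with median scaling or the replicate block, 0 with the 2 groups alone, no variance trend or siScramble 3 and 4 left out, and 0 to 3 with each library left out (0 without siScramble 4, siHdac4 2 or siHdac4 3, 1 without siScramble 3 or siHdac4 1). For siBdnf against siScramble there were 3, and 2 to 4 over all the alternatives. For siHdac4 against siBdnf there were 2, 5 with quantile or median scaling, 4 with the 2 groups alone, library weights or siScramble 3 and 4 left out, and 1 to 4 with each library left out (1 without siHdac4 2, siHdac4 3 or siBdnf 4, 4 without siScramble 4).

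Among all loci, the 1 past the adjusted threshold for siHdac4 against siScramble became 0 with the 2 groups alone, the replicate block, no trend, protein-coding loci or siScramble 3 and 4 left out, 7 with siScramble 1 and 3 left out, 48 with loci listed at 0 kept, and 0 to 36 with each library left out, the most without siScramble 1. For siBdnf against siScramble the 0 became 1 with the 2 groups alone or siScramble 1 and 3 left out, 51 with loci at 0 kept, 181 with siScramble 3 and 4 left out, and 0 to 1 with each library left out. For siHdac4 against siBdnf the 1 became 0 at a mean of at least 5 FPKM, with median scaling or the replicate block, 2 with no trend, 3 with protein-coding loci or an adjusted p below 0.1, 4 with siScramble 1 and 3 left out, 5 with loci at 0 kept, 52 with siScramble 3 and 4 left out, 95 with library weights, 167 with the 2 groups alone, and 0 to 9 with each library left out. The causes were not tested.

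Libraries with the same replicate number correlated at −0.076 to 0.24 in their deviations from the group means (12 pairs). Those with different numbers correlated at −0.38 to 0.29. These ranges overlap, but 12 pairs set against 36 cannot tell if libraries are paired by number. Such correlations cannot exclude a pairing or a batch. Read depth is unknown, and members near 1 FPKM (Slc32a1, Dlx6) and the 4 under it have the widest relative spread.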

Other observations

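Loci typed as intronic were left out of the members, but 12 carry the name of one: 6 Gabrg3, 3 Gabrb1, 2 Gphn and 1 Erbb4. The most abundant was an intronic locus named Gphn within chr12:78210748-78710426, at 102, 233, 1858 and 641 FPKM in the siScramble group (libraries 1 to 4), 183, 96.3, 172 and 227 in siHdac4 and 305, 1151, 457 and 616 in siBdnf. The siScramble values overlapped both other groups, while all siHdac4 values lay under all siBdnf values, as they did at 8.47% of all loci. For siHdac4 against siScramble the authors' deposited table gave this locus a log2 fold change of −2.06 with a p of 5e-05 and an FDR of 0.00739. On the log2(FPKM + 1) scale limma gave −1.34 with an adjusted p of 0.538. The other intronic Gphn locus, with the same listed span, was at 71.0, 168, 223 and 148 FPKM in siScramble, 119, 58.9, 84.5 and 116 in siHdac4 and 170.0, 155, 144 and 171 in siBdnf. For siHdac4 against siBdnf the log2 fold changes of the pair were −1.78 and −0.80, with limma adjusted p-values of 0.284 and 0.267.

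An intronic locus named Gabrg3, within chr7:56716296-56985339, was at 6.40, 28.6, 25.8 and 24.6 FPKM in siScramble, 8.68, 4.81, 4.61 and 14.9 in siHdac4 and 12.8, 12.3, 9.21 and 13.8 in siBdnf. Its siScramble values were high in libraries 2, 3 and 4 and low in library 1. The log2 fold change for siHdac4 against siScramble was −1.23 (limma unadjusted p = 0.0160, adjusted p = 0.482). Of 11 intronic loci tested, 0 passed the adjusted threshold in any of the 3 comparisons. By unadjusted p there was 1 lower for siHdac4 against siScramble, 1 higher for siBdnf against siScramble and 2 lower for siHdac4 against siBdnf. Beside these, 5.43%, 5.72% and 10.5% of all loci met that rule in the same comparisons and directions.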
